A study of Mus musculus with 72 samples.

Results

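The genes of cholesterol synthesis and the targets of the transcription factor SREBP-2 were described in livers of 4 inbred mouse strains on a high-fat diet (HFD) or as controls. The members were 29 listed genes, each read from its probe sets that carry 1 gene symbol on an Affymetrix whole-transcript array, and where a gene had several such probe sets the one with the highest mean was used. Of the 29, 27 were measured among 19938 genes in all. Acat2 and Soat2 had no such probe set, so their expression was not analysed here.

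The study compared 30 HFD and 42 control livers, 1 array each, from male wild-type mice that were kept singly and fed at random before sampling. The strains were 129P2/OlaHsd (129 below; 8 control and 7 HFD arrays), C57BL/6J (B6J; 8 and 7), C57BL/6NTac (B6N; 8 and 8) and C3HeB/FeJ (C3H; 18 and 8). HFD lasted 21 days. The controls carry the treatment label none, while the protocol names a low-fat diet of at most 21 days, so whether every control ate it was not settled. All 129 mice were 17 weeks old. In the other strains HFD mice were 17 weeks old and controls 15 to 17 weeks, so age went partly with diet.

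Hepatocytes make cholesterol from acetyl-CoA through mevalonate, farnesyl diphosphate, squalene and lanosterol. When sterol in the endoplasmic reticulum is low, the escort protein SCAP carries SREBP-2 to the Golgi, where it is cleaved, and its released part enters the nucleus and turns on most genes of the pathway, usually with the factor NF-Y. Sterol-bound INSIG proteins hold SCAP back, and dietary cholesterol is known to lower the pathway in liver by this route.

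Promoter stretches of 6 members are shown because the results turn on these genes or because they show the 2 kinds of element that were searched. They are the 150 bases before the RefSeq start (build GRCm38.p6), read 5′ to 3′ on the gene's own strand. Hmgcs1 lies at chr13:119690201-119690350 (plus strand), Mvk at chr5:114444119-114444268 (plus), Lss at chr10:76531455-76531604 (plus), Nsdhl at chrX:72918371-72918520 (plus), Tm7sf2 at chr19:6067851-6068000 (minus) and Mylip at chr13:45389592-45389741 (plus). Capitals mark the NF-Y box CCAAT on either strand and, in Hmgcs1 alone, the 8-base sterol element core CACNCCAC.
Hmgcs1: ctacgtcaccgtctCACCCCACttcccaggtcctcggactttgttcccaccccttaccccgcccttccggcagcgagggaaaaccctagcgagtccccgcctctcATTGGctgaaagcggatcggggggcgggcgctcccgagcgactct
Mvk: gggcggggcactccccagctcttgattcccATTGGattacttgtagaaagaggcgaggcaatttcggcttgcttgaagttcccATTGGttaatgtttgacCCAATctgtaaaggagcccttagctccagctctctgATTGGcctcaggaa
Lss: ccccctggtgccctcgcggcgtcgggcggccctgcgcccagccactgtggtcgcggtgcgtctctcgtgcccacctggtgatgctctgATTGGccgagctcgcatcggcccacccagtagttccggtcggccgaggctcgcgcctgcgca
Nsdhl: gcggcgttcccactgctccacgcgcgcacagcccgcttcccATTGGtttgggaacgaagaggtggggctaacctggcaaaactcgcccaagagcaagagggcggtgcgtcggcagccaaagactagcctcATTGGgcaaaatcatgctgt
Tm7sf2: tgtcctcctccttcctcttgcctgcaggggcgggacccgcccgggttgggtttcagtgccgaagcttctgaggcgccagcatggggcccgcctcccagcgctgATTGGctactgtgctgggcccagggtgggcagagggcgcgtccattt
Mylip: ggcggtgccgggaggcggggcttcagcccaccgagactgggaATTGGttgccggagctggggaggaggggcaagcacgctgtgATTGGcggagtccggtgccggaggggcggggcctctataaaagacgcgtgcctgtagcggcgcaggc

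Of the 29 listed genes, 24 had a RefSeq promoter window from 250 bases before to 50 after the start, in 31 windows. No window was available for Sqle, Fdft1, Fdps, Stard4 and Soat2, so their promoters were not searched. The NF-Y box CCAAT was present on either strand in 21 of these 24 genes, against 41.1% of all 27025 genes with a window. The classical 10-base sterol regulatory element was in 0 of the 24 and in 0.270% of all genes. Its core CACNCCAC, which is part of the longer element and was also searched on both strands, was in 3 of the 24 (Acat2, Hmgcs1 and Insig1) and in 7.12% of all genes. The Mvk stretch held 4 NF-Y boxes, and those of Nsdhl and Mylip held 2 each. A match is a description of these letters, and no binding was measured.

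The values are log2 probe set signals. Array medians fell into 3 ranges (6.46 to 6.65 in 129, 4.51 to 4.67 in B6J and B6N, 3.10 to 3.28 in C3H), so a level was set only against others of the same range. Every member's mean lay at least 0.49 above its arrays' median in every group. The hepatocyte marker Alb lay 7.46 to 10.4 above it on every array. Nnt, part of which C57BL/6J lacks, ran from 7.65 to 8.11 in B6J controls and from 8.39 to 9.62 in B6N controls. One library stood apart, 129 control replicate 6, whose score on the first component of the residuals was 54.3 in size against 22.7 for the next 129 array. The B6 arrays fell into 2 parts by the sign of the same component, each part holding arrays of all 4 B6 groups. In each group the lower replicate numbers lay in a single part and the higher numbers in the other. The parts are a split of these data, not a labelled batch. The labels do not say which mice shared a litter or a day, and the p-values therefore reflect how far these livers differ from one another.

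HFD changed no member past the threshold in any single strain. Each gene was fitted in limma with 1 mean for each of the 8 groups, and a gene was called where its Benjamini-Hochberg adjusted p over all genes was under 0.05. In 129, 0 of 27 members were called, against 0.577% of all genes. The same count was 0 in B6J (0.296% of all genes), 0 in B6N (0.918%) and 0 in C3H (0.853%). At an unadjusted p under 0.05, 1 member was higher and 4 lower in 129 (3.66% and 1.83% of all genes), 1 higher and 0 lower in B6J (3.08% and 2.7%), 2 higher and 1 lower in B6N (3.14% and 2.54%), and 3 higher and 0 lower in C3H (5.07% and 3.16%). The members' median log2 change was -0.16 for 129, -0.15 for B6J, -0.01 for B6N and 0.01 for C3H, while that of all genes lay within 0.01 of 0 in each strain. The change was negative for 21 of 27 members in 129, where 49% of all genes had a negative change, and for 20 of 27 in B6J (48.2%). In B6N it was negative for 14 (51%) and in C3H for 12 (46%).

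The B6J values rested largely on a pair of livers. The members' mean level was 8.77 in B6J HFD replicate 3 and 8.92 in replicate 5, below all B6J controls (9.12 to 9.37), while the other 5 HFD livers lay between 9.18 and 9.46. Without B6J HFD replicate 3 the median was -0.02, with 14 of 27 negative, and without replicate 5 it was -0.09, with 18 of 27 negative. Within the 2 parts of the B6 arrays the median for B6J was -0.19 (23 of 27 negative) and -0.02 (15 of 27). Hepatocyte markers in B6J had a median of -0.12, with 9 of 11 negative, 2 lower at an unadjusted p under 0.05 (2.7% of all genes) and 0 called, and their mean level lay between 12.1 and 12.3 in controls and between 11.8 and 12.2 in HFD livers. The clock genes Dbp and Arntl were at 0.99 ± 0.38 and -0.81 ± 0.28 in B6J, neither called. The part of hepatocyte markers and clock genes in the members' values was not tested. Leaving out each array of the strain in turn gave medians of -0.23 to -0.12 in 129, and values on both sides of 0 in B6N (-0.08 to 0.05) and C3H (-0.05 to 0.07).

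**Figure D1:**
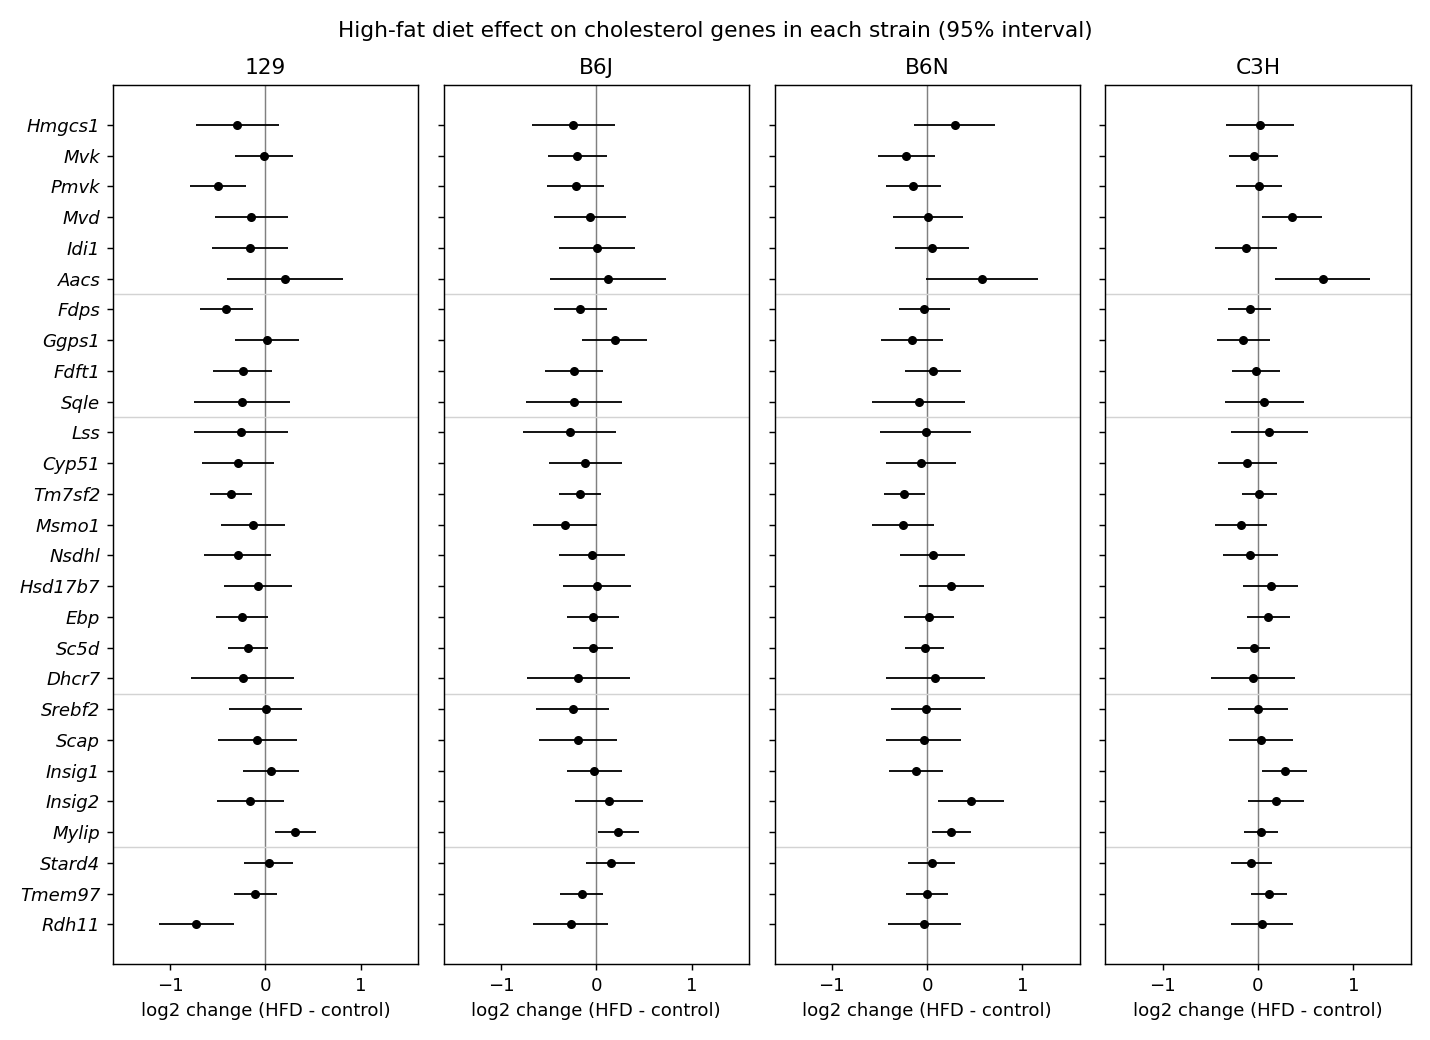
Log2 change on HFD (HFD minus control) of the 27 measured members in each strain, with points for the limma estimate and bars for its 95% interval; grey lines separate the mevalonate arm, the prenyl and squalene steps, the steps from lanosterol to cholesterol, the regulators, and the other targets. Most points lie left of 0 in 129 and B6J (21 and 20 of 27) and on both sides in B6N and C3H, and no member passed the threshold in 1 strain.

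In the mevalonate arm, Pmvk, which phosphorylates phosphomevalonate, ran in 129 controls from 8.10 to 9.09 with a median of 8.70, and in 129 HFD livers from 7.89 to 8.53 with a median of 8.18. Its change was -0.50 ± 0.15 (SE; limma adjusted p = 0.119), and the groups overlapped. Its change in the other strains was between -0.22 and 0.01. Hmgcs1, which makes HMG-CoA, had changes of -0.30 ± 0.22 for 129, -0.24 ± 0.22 for B6J, 0.29 ± 0.21 for B6N and 0.02 ± 0.18 for C3H. In 129, 2 of the 7 HFD livers lay below all controls, and in B6N 2 of the 8 lay above all controls.

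Aacs, which activates acetoacetate for lipid synthesis in the cytosol, had the highest estimate of any member in B6N and C3H. In C3H controls it ran from 5.72 to 8.38 (median 6.91) and on HFD from 7.13 to 8.76 (median 7.62), a change of 0.68 ± 0.25 (limma adjusted p = 0.315). In B6N controls it ran from 6.89 to 8.74 (median 7.89) and on HFD from 7.69 to 9.24 (median 8.31), a change of 0.58 ± 0.29 (adjusted p = 0.894). The groups overlapped in both strains, and the spread of the C3H controls was wide (SD 0.785, n = 18). Mvd, which makes isopentenyl diphosphate, had a change of 0.36 ± 0.16 in C3H (adjusted p = 0.506) and of -0.15 ± 0.19 in 129.

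At the prenyl and squalene steps, Fdps, which makes farnesyl diphosphate, ran in 129 controls from 11.54 to 12.24 (median 11.90) and in 129 HFD livers from 11.16 to 12.01 (median 11.45). Its change there was -0.41 ± 0.14 (limma adjusted p = 0.263), with 4 of 7 HFD livers below all controls. B6J controls lay between 9.93 and 10.22 (median 10.10) and B6J HFD livers between 9.59 and 10.16 (median 9.92), and B6N controls lay between 8.88 and 10.04 (median 9.64) and B6N HFD livers between 9.32 and 10.04 (median 9.52). C3H controls lay between 8.49 and 9.55 (median 9.03) and C3H HFD livers between 8.72 and 9.47 (median 8.93). The changes were -0.17 ± 0.14 in B6J, -0.03 ± 0.13 in B6N and -0.09 ± 0.11 in C3H, and the diets overlapped in each.

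Fdft1 and Sqle make squalene and its epoxide. Fdft1 lay in 129 controls between 11.86 and 12.57 (median 12.29) and in 129 HFD livers between 11.58 and 12.57 (median 12.04), and in C3H from 8.62 to 9.63 (median 9.02) and from 8.52 to 9.48 (median 9.14). Sqle ran in 129 from 9.62 to 10.94 (median 10.62) and from 9.58 to 10.96 (median 10.27), and in C3H from 6.38 to 8.28 (median 7.69) and from 6.93 to 8.25 (median 7.60). Neither gene separated the diets in any strain. The change of Fdft1 was -0.24 ± 0.15 for 129, -0.23 ± 0.15 for B6J, 0.06 ± 0.15 for B6N and -0.02 ± 0.13 for C3H. That of Sqle was -0.24 ± 0.25, -0.23 ± 0.25, -0.09 ± 0.24 and 0.07 ± 0.21 in the same order.

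From lanosterol to cholesterol, the estimates in B6J were led by Msmo1, the C-4 methyl oxidase, at -0.33 ± 0.17 (limma adjusted p = 0.868), and Lss, which closes the sterol rings, at -0.28 ± 0.25. Msmo1 was also at -0.25 ± 0.16 in B6N, -0.18 ± 0.14 in C3H and -0.13 ± 0.17 in 129. Nsdhl, which removes the C-4 carboxyl group, ran in 129 controls from 10.73 to 11.75 (median 11.51) and on HFD from 10.82 to 11.43 (median 11.27). Its C3H controls ran from 7.79 to 9.05 (median 8.29) and the C3H HFD livers from 7.97 to 8.84 (median 8.17). Its changes were -0.29 ± 0.18 for 129, -0.04 ± 0.18 for B6J, 0.06 ± 0.17 for B6N and -0.08 ± 0.14 for C3H, none past the threshold.

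Among the regulators, Srebf2, which encodes SREBP-2, had a change of -0.25 ± 0.19 in B6J and lay within 0.01 of 0 in the other strains. Scap was between -0.20 and 0.03. Insig2, whose liver transcript is held down by insulin, had a change of 0.46 ± 0.17 in B6N (11.09 to 12.07 on HFD, median 11.75, against 10.56 to 11.57 in controls, median 11.27; limma adjusted p = 0.416) and of 0.19 ± 0.15 in C3H. Insig1, a direct target, had a change of 0.28 ± 0.12 in C3H (adjusted p = 0.492) and of -0.11 ± 0.14 in B6N.

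Rdh11, a retinol dehydrogenase known as an SREBP target, had the member estimate furthest from 0 in 129. Its control livers lay between 9.36 and 10.79 (median 10.21) and its HFD livers between 9.03 and 9.95 (median 9.65), a change of -0.72 ± 0.20 (limma adjusted p = 0.0621). All 7 HFD livers lay below the control median and 3 below all controls. In B6J, B6N and C3H its change was -0.27 ± 0.20, -0.03 ± 0.19 and 0.04 ± 0.16.

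Without 129 control replicate 6, Rdh11 was called lower in 129 at -0.84 ± 0.20 (limma adjusted p = 0.0172) and Tm7sf2 at -0.44 ± 0.11 (adjusted p = 0.0333). The median of the members was then -0.19, with 22 of 27 negative, and 7 members were lower at an unadjusted p under 0.05 (1.56% of all genes) in place of 4. Leaving out 5 other arrays in turn also gave calls in 129. These were 129 control replicate 3 (Pmvk and Rdh11) and 129 HFD replicate 1, 129 HFD replicate 5, B6J HFD replicate 3 and B6N control replicate 3 (Rdh11 each). With limma array weights 10 members were called in 129, 9 of them lower, where 2.89% of all genes were called. Kupffer and macrophage markers moved with diet in the same strain: 6 of 12 were called higher (0.577% of all genes were called), and their mean level lay between 8.56 and 9.06 in controls and between 8.88 and 10.1 in HFD livers. Of 15 circadian clock genes, Per2, Per3 and Ciart were called higher in 129, and the mean level of the list lay between 8.07 and 9.09 in controls and between 8.70 and 9.10 in HFD livers. That mean holds genes of opposite sign: Dbp was at 1.04 ± 0.38 and Arntl at -0.77 ± 0.28, neither called. The part of these marker lists in the members' values was not tested. In bulk tissue, fewer cells of a type and less RNA per cell cannot be told apart.

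Averaged over the 4 strains, Mylip rose and Tm7sf2 fell on HFD, each by little. Mylip encodes the ubiquitin ligase IDOL, which marks lipoprotein receptors for degradation and is a target of the sterol receptor LXR rather than of SREBP-2. Its mean change was 0.21 ± 0.05 (1.15-fold, 95% interval on the log2 scale 0.11 to 0.31; limma adjusted p = 0.00691). Tm7sf2, a sterol C-14 reductase, fell by 0.19 on the log2 scale (SE 0.05, interval -0.29 to -0.08; adjusted p = 0.0244). These 2 of 27 stood against 3.16% of all genes called, 1 of 27 against 2.02% called higher and 1 of 27 against 1.14% called lower. The median mean effect of the members was -0.07 and that of all genes 0.00, and 20 of 27 members were negative against 48.9% of all genes. At an unadjusted p under 0.05, 2 members were higher (6.84% of all genes) and 5 lower (4.27%). In the same mean effect 6 of 12 Kupffer and macrophage markers were called higher, and of 15 clock genes 7 were called higher and 1 lower. Of 11 hepatocyte markers 2 were called lower, Cps1 at -0.31 ± 0.06 and Tat at -0.25 ± 0.08, and the median was -0.04. The part of these lists in the changes of Mylip and Tm7sf2 was not tested.

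Mylip lay in 129 controls between 8.15 and 8.47 (median 8.36) and in 129 HFD livers between 8.48 and 8.91 (median 8.60), so that all 7 HFD livers lay above all 8 controls. Groups did not overlap for 0.251% of all genes in that comparison. In B6J controls it lay between 6.40 and 6.77 (median 6.55) and in B6J HFD livers between 6.46 and 7.17 (median 6.78), and in B6N from 6.44 to 6.92 (median 6.59) and from 6.76 to 7.23 (median 6.88). In B6N all 8 HFD livers lay above the control median, and in B6J 6 of 7 did. In C3H controls it ran from 4.97 to 5.64 (median 5.30) and in C3H HFD livers from 4.90 to 6.04 (median 5.24), with 4 of 8 above the control median. The changes by strain were 0.31 ± 0.11 for 129, 0.23 ± 0.11 for B6J, 0.25 ± 0.10 for B6N and 0.03 ± 0.09 for C3H.

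Tm7sf2 lay in 129 controls between 10.91 and 11.76 (median 11.53) and in 129 HFD livers between 10.78 and 11.44 (median 11.05), with all 7 HFD livers below the control median. In B6J it ran from 9.98 to 10.50 (median 10.27) and from 9.74 to 10.45 (median 10.05), and in B6N from 9.91 to 10.46 (median 10.15) and from 9.59 to 10.19 (median 9.95). In C3H it ran from 9.13 to 9.87 (median 9.56) and from 9.18 to 9.96 (median 9.54), with equal numbers on either side of the control median. The changes were -0.36 ± 0.11 for 129, -0.17 ± 0.11 for B6J, -0.24 ± 0.11 for B6N and 0.01 ± 0.09 for C3H. The call of Tm7sf2 was lost with quantile normalisation of all arrays (adjusted p = 0.0604) and with the replicate number as a block (adjusted p = 0.0956), while Mylip was called under every alternative run.

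**Figure D2:**
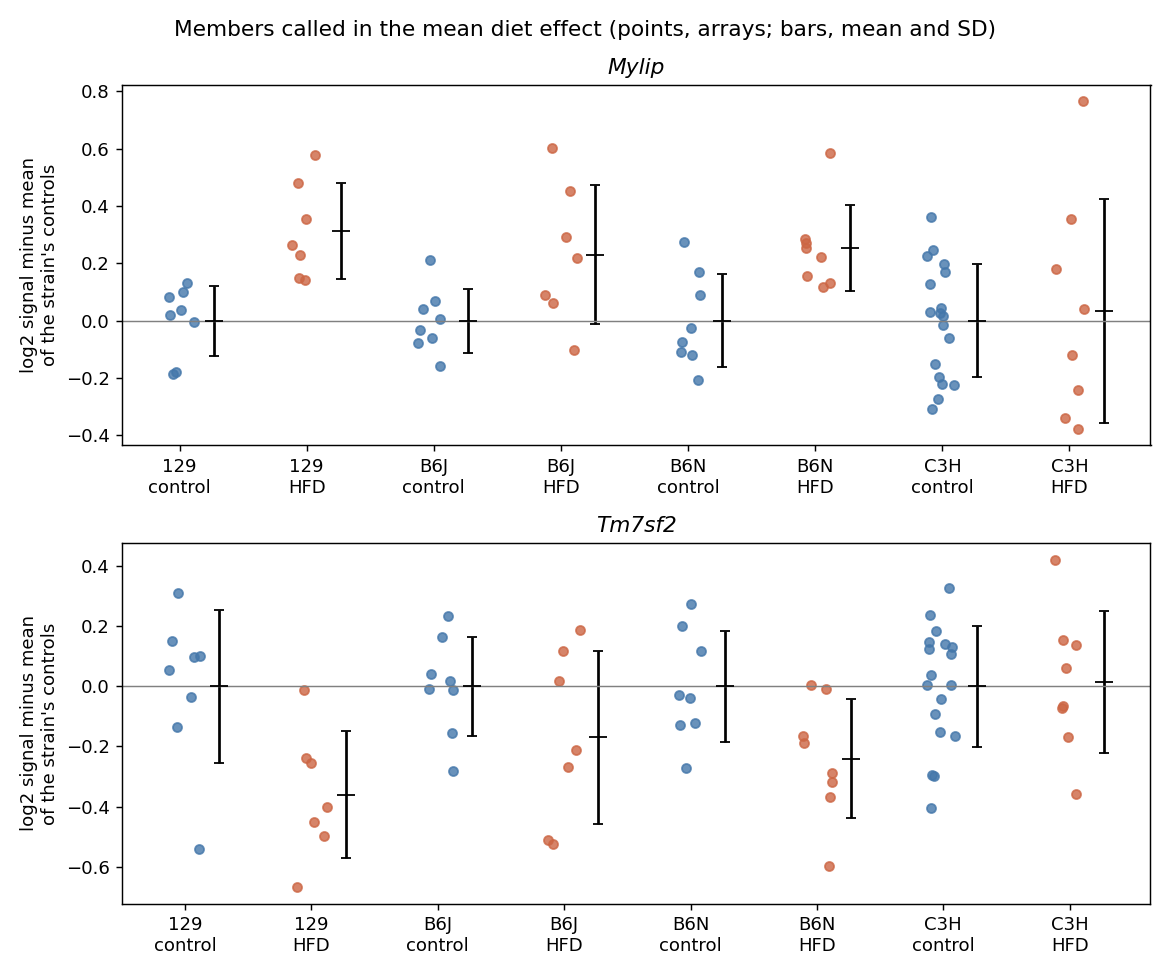
Mylip and Tm7sf2 in each liver, as log2 signal minus the mean of the strain's controls; points are arrays, bars the group mean and SD (n = 7 to 18), blue controls and red HFD. The 129 HFD livers lie above all 129 controls for Mylip, and the C3H groups overlap for both genes.

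Members that missed the threshold in the mean effect were Aacs at 0.40 ± 0.14 (limma adjusted p = 0.156), Rdh11 at -0.24 ± 0.09 (0.202), Msmo1 at -0.22 ± 0.08 (0.138) and Pmvk at -0.21 ± 0.07 (0.0914). No difference of diet effects between strains was called for a member. In the moderated F test 0 of 27 were called, against 0.125% of all genes, and at an unadjusted p under 0.05 Rdh11 alone passed, against 3.93% of all genes. In the 6 pairwise differences 0 members were called as well, against 0.00502% of all genes for B6J minus 129, 0.0401% for B6N minus 129, 0.0602% for C3H minus 129, 0% for B6N minus B6J, 0.0401% for C3H minus B6J and 0.0451% for C3H minus B6N. C3H minus 129 had 5 members higher (2.49% of all genes) and 1 lower (2.61%) at an unadjusted p under 0.05, led by Rdh11 with a difference of 0.77 ± 0.26 (adjusted p = 0.578).

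Genes next to the pathway were read from lists of related genes, chosen by function. Of 29 other genes of cholesterol synthesis, uptake and SREBP processing, 2 were called higher and 2 lower in the mean HFD effect, with a median log2 change of 0.02. Of all genes 2.02% were called higher and 1.14% lower there. The called genes of this list were Acat1, the mitochondrial thiolase (0.38 ± 0.05), Lpin1, a phosphatidate phosphatase (0.49 ± 0.15), Cyb5b, a mitochondrial cytochrome b5 (-0.25 ± 0.05), and Pgrmc1, a haem-binding membrane protein (-0.15 ± 0.04). Of 15 genes of LXR and sterol export, Abcg5 and Abcg8, whose products together export sterol into bile, rose by 0.41 ± 0.08 and 0.38 ± 0.09. In that list Cyp7a1, which starts bile acid synthesis from cholesterol, fell by 1.33 on the log2 scale, and Scd1, a fatty acid desaturase, by 0.33. Of 19 genes of SREBP-1 lipogenesis, 4 were called higher and 2 lower, with a median of 0.26. Fads2, Elovl5 and Fads1 of polyunsaturated fatty acid synthesis had changes of 0.82 ± 0.09, 0.51 ± 0.08 and 0.44 ± 0.10, and Acss2, which makes cytosolic acetyl-CoA, had -0.45 ± 0.09. The members' median of -0.07 is given beside these with no test between lists.

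The same lists, of 29, 15 and 19 genes, held the following calls by strain. Of all genes, 0.918% were called for HFD in B6N and 0.853% in C3H, while 129 had 0.577% and B6J 0.296%. In B6N, Acat1 had a change of 0.52 ± 0.09 and Cyp7a1 of -2.12 ± 0.40. In C3H, Acat1 was at 0.34 ± 0.08, Cyp7a1 at -1.53 ± 0.34 and Lpl, a lipoprotein lipase, at -0.99 ± 0.14. The lipogenesis calls were Acss2 in 129 (-0.79 ± 0.19), Fads2 in B6J (0.96 ± 0.19), Fads2 and Elovl5 in B6N (1.15 ± 0.18 and 1.0 ± 0.15), and Fads2, Pnpla3 and Elovl5 in C3H (0.81 ± 0.16, 0.71 ± 0.13 and 0.65 ± 0.13). Each passed the limma threshold over all genes.

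Control livers of B6N held lower estimates of most members than those of B6J, though none passed the adjusted threshold. Of 27 members, 0 were called, against 0.0351% of all genes. At an unadjusted p under 0.05, 18 were lower, against 3.52% of all genes, and 0 were higher, against 3.33%. The median log2 difference was -0.38, against 0.02 over all genes, and 24 of 27 were negative, against 44.7%. Within groups the members varied together between B6 animals (median Pearson r 0.49 over pairs of members). Counts of members in this and the other comparisons are therefore not counts of independent genes. By role, the estimates of all 6 genes of the mevalonate arm were negative, as were those of all 9 genes from lanosterol to cholesterol.

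Sqle, squalene epoxidase and a rate-limiting step of the pathway, had the estimate furthest from 0. It ran from 8.52 to 9.02 in B6J controls (median 8.78) and from 6.53 to 8.56 in B6N controls (median 7.70), and 7 of 8 B6N livers lay below all B6J livers. The difference was -1.09 ± 0.24 (2.12-fold lower; limma adjusted p = 0.0770). The adjusted p passed the threshold when B6N control replicate 1, 5 or 7 or C3H control replicate 2 or 8 was left out. It was 0.447, with a difference of -0.92 ± 0.24, without B6N control replicate 6.

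Dhcr7, which makes cholesterol from its immediate precursor, differed by -0.80 ± 0.26 (adjusted p = 0.598), with 7 of 8 B6N livers below all B6J livers. Lss differed by -0.72 ± 0.24 (0.598), with B6J controls from 8.07 to 8.59 and B6N controls from 6.51 to 8.28. Aacs differed by -0.70 ± 0.29 (limma adjusted p = 0.704). The B6J and B6N controls overlapped for each of these genes.

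Fdft1 was the only member whose B6J and B6N controls did not overlap, which held for 0.0602% of all genes. It ran from 10.30 to 10.72 in B6J (median 10.62) and from 9.39 to 10.29 in B6N (mean 9.94 ± 0.301 SD, n = 8), a difference of -0.61 ± 0.15 (limma adjusted p = 0.172). Its other probe set differed by -0.66 ± 0.15. Nsdhl ran from 9.12 to 9.54 in B6J controls (median 9.33) and from 7.96 to 9.22 in B6N controls (median 8.85), a difference of -0.57 ± 0.17 (adjusted p = 0.524), and Fdps differed by -0.47 ± 0.13 (adjusted p = 0.423). For both genes 6 of 8 B6N livers lay below all B6J livers.

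Of the regulators, Srebf2 differed by -0.38 ± 0.19 and Scap by -0.42 ± 0.20, both unadjusted p under 0.05 and neither called. Ggps1, a branch enzyme for protein prenylation, Mylip and Insig2 had the only positive estimates, at 0.20 ± 0.16, 0.08 ± 0.10 and 0.07 ± 0.17. Tm7sf2 and Mvk were at -0.08 ± 0.11 and -0.15 ± 0.15. B6N control replicate 6 had the lowest mean level of the members among all B6 arrays, at 8.39. The other B6N controls lay between 8.59 and 9.22. It was the lowest B6N control for Sqle, Fdft1, Fdps and Nsdhl, as for Stard4 and Tmem97, though not for every member. Without this array 12 members, in place of 18, were lower at an unadjusted p under 0.05, against 1.78% of all genes. The median was then -0.34.

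HFD-fed livers of these strains, a comparison added after the controls were seen, also held lower estimates in B6N. Of 27, 0 were called (0.191% of all genes), 8 were lower at an unadjusted p under 0.05 (2.61%) and 1 was higher (3.53%), namely Insig2. The median was -0.27, with 25 of 27 negative against 48.1% of all genes. Sqle ran from 7.73 to 9.14 in B6J HFD livers (median 8.78) and from 6.96 to 8.21 in B6N HFD livers (median 7.71), a difference of -0.94 ± 0.25 (limma adjusted p = 0.132). All 8 B6N livers lay below the B6J median and 4 below all B6J livers. Dhcr7, Idi1 and Nsdhl followed at -0.52 ± 0.27, -0.50 ± 0.20 and -0.47 ± 0.18.

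Nsdhl ran on HFD from 8.66 to 9.79 in B6J (median 9.28) and from 8.33 to 9.35 in B6N (median 8.92). Fdft1 ran from 9.82 to 10.76 (median 10.33) and from 9.53 to 10.45 (median 10.02), a difference of -0.32 ± 0.15. Fdps differed by -0.33 ± 0.14, with 5 of 8 B6N livers below all B6J livers. The groups overlapped for these genes.

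Over both diets together, 4 members were called lower in B6N than in B6J, against 0.236% of all genes, and 0 higher, against 0.125% (0.361% in either direction). This mean over diets, added after the separate comparisons were seen, uses the same arrays as they do. Sqle differed by -1.02 ± 0.18 (2.02-fold lower; 95% interval -1.37 to -0.67; limma adjusted p = 0.000261), Nsdhl by -0.52 ± 0.12 (adjusted p = 0.0243), Fdft1 by -0.46 ± 0.11 (0.0194) and Fdps by -0.40 ± 0.10 (0.0350). Fdps, Fdft1 and Sqle encode 3 successive enzymes, which make farnesyl diphosphate, squalene and squalene epoxide. Nsdhl encodes 1 of the sterol demethylation complex. At an unadjusted p under 0.05, 20 members were lower, against 5.43% of all genes, and 0 were higher (4.68%), and the median was -0.33 against 0.01 over all genes. The difference was negative for 24 of 27 members and for 43.9% of all genes. Dhcr7, Lss, Idi1 and Cyp51, the lanosterol demethylase, missed the threshold at -0.66 ± 0.19, -0.59 ± 0.17, -0.52 ± 0.14 and -0.48 ± 0.13.

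**Figure D3:**
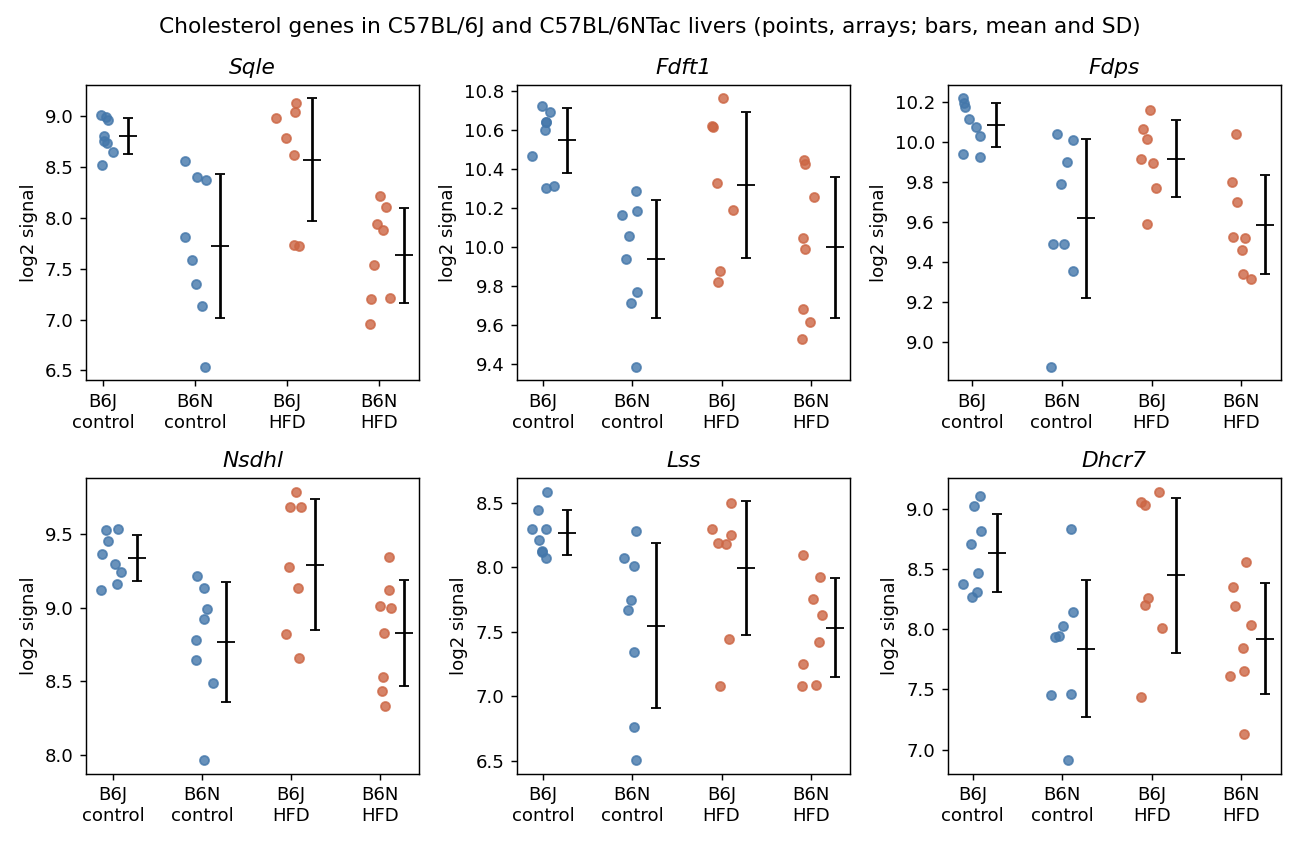
Log2 signal of 6 members in each B6J and B6N liver, with points for arrays and bars for the group mean and SD (n = 7 or 8); blue marks controls and red HFD. The B6J controls of Sqle lie between 8.52 and 9.02 and the B6N controls between 6.53 and 8.56, and the Fdft1 controls of the strains do not overlap.

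Sqle was called over both diets whichever of the 72 arrays was left out (adjusted p 6.79e-05 to 0.00105). Fdft1, Nsdhl and Fdps lost the call in 3, 7 and 14 of the 72 cases, and only Sqle was called without B6J HFD replicate 4, B6N control replicate 6 or B6N HFD replicate 5. Only Fdft1 and Sqle were called without B6J HFD replicate 1 or 2, B6N control replicate 3 or B6N HFD replicate 2. The count was 6 with the replicate number as a block, where 0.617% of all genes were called. Within the 2 parts of the B6 arrays, the difference of Sqle over both diets was -1.07 and -0.99, that of Nsdhl -0.47 and -0.51, that of Fdft1 -0.42 and -0.51, and that of Fdps -0.33 and -0.40. In controls the members' median was -0.44 in one part (24 of 27 negative) and -0.40 in the other (25 of 27). In HFD-fed livers it was -0.18 (24 of 27) and -0.35 (25 of 27), and Fdft1 differed by -0.15 and -0.49.

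Signal of pancreatic acinar genes moved with the same strain difference. All 15 measured acinar markers had negative estimates in B6N against B6J controls, 13 of 15 at an unadjusted p under 0.05 (3.52% of all genes) and 0 called, with a median of -2.04. Their mean level ran from 4.99 to 11.5 in B6J controls and from 4.57 to 6.5 in B6N controls. With that mean level as a covariate, Fdft1 and Sqle were called over both diets, and the members' median was -0.31. The 11 hepatocyte markers had a median of -0.11 in controls, 5 lower and 0 higher at an unadjusted p under 0.05 (3.52% and 3.33% of all genes), with mean levels from 12.1 to 12.3 in B6J and from 11.8 to 12.2 in B6N. The 15 clock genes had a median of -0.09, which hides estimates of opposite sign within the list. Dbp was at 0.41 ± 0.36 and Arntl at -0.47 ± 0.27, neither called. The labels give no time of day of sampling. The part of hepatocyte markers and clock genes in the members' difference was not tested.

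In the related lists, the B6N and B6J controls differed in no called gene. The median was -0.34 for the 19 genes of SREBP-1 lipogenesis (4 lower at an unadjusted p under 0.05), -0.14 for the 29 other cholesterol genes (4 lower) and -0.13 for the 15 genes of LXR and sterol export (2 lower). Of all genes 3.52% were lower at that p. The lipogenesis list includes Aacs, which is also a member. Cyp7a1 differed by -2.04 ± 0.42 on HFD and by -1.44 ± 0.29 over both diets (limma adjusted p = 0.00646 and 0.00327).

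Between animals of 1 group, the members' median SD was above that of all genes, except in B6J controls. All genes were not matched to the members for signal level. The members' median SD was 0.167 in B6J controls, where that of all genes was 0.172. It was 0.378 in B6N controls, 0.341 in 129 controls and 0.374 in C3H controls, where that of all genes was 0.199, 0.161 and 0.216. On HFD it was 0.318 for 129, 0.349 for B6J, 0.288 for B6N and 0.391 for C3H. The B6N controls had an SD of 0.709 for Sqle and the B6J controls 0.177.

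Within groups most members varied together between animals. After group means were removed, the median Pearson r over the 351 pairs of members was 0.53 over 15 arrays in 129, 0.49 over 31 arrays in the B6 strains and 0.37 over 26 arrays in C3H. Over all pairs of genes it was 0.03 in 129 and within 0.01 of 0 in the others. A pair had an r above 0.5 in 53.0%, 48.1% and 41.6% of cases, against 15.2%, 4.91% and 4.08% of all pairs. These are descriptions across arrays, in which both genes of a pair share the RNA sample and the array's normalisation. The pairs of all genes were not matched to the members for signal level. The rank correlation gave medians of 0.51, 0.44 and 0.38, and control arrays alone 0.53, 0.53 and 0.40.

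Sqle had an r of 0.94 with the mean of the other members in 129, 0.94 in the B6 strains and 0.85 in C3H. Lss had 0.88, 0.95 and 0.86, Fdft1 0.94, 0.90 and 0.82, and Nsdhl 0.91, 0.90 and 0.84. Rdh11 had 0.95, 0.85 and 0.80, close to the enzymes of the pathway. An r above 0.5 was found for 19 members in 129, 21 in the B6 strains and 19 in C3H. The closest pairs were Nsdhl and Rdh11 in 129 (0.95), Sqle and Lss in the B6 strains (0.94) and Idi1 and Msmo1 in C3H (0.94), followed in C3H by Dhcr7 and Scap (0.91) and Sqle and Lss (0.91).

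**Figure D4:**
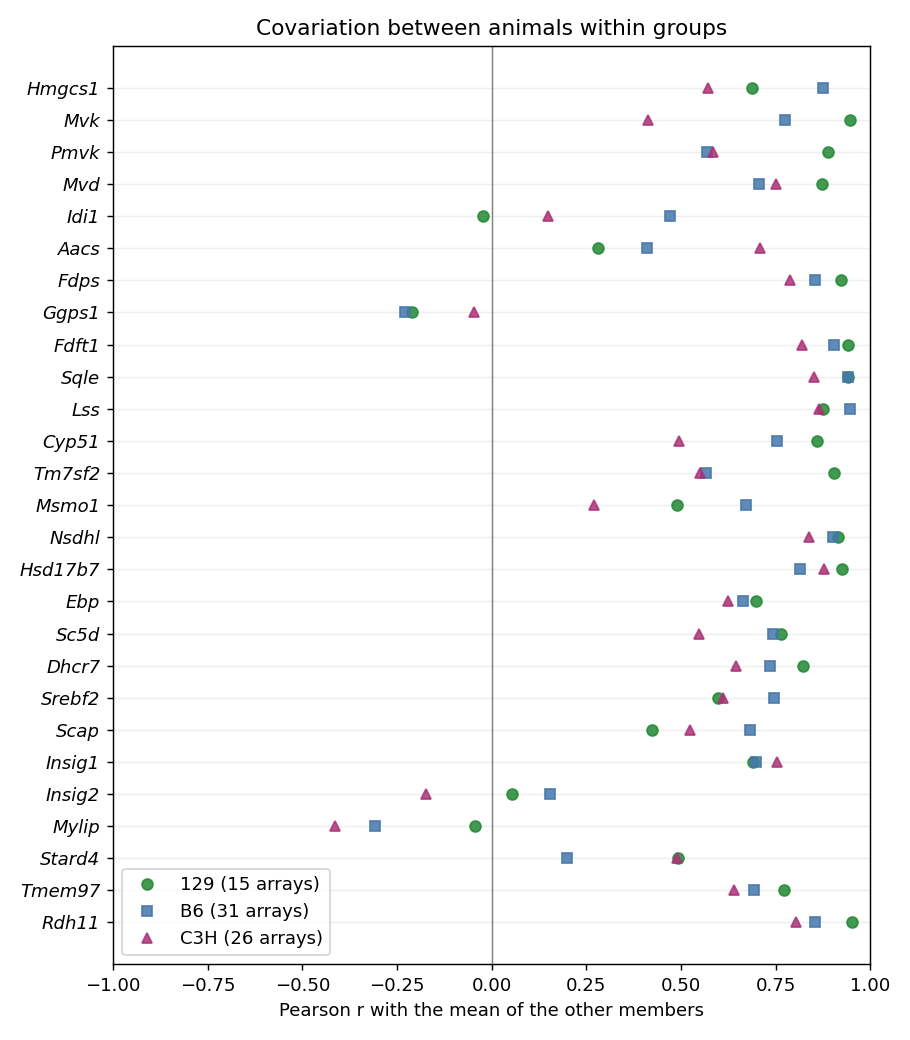
Pearson r of each member with the mean of the other members, after group means were removed, in 129 (circles, 15 arrays), the B6 strains (squares, 31) and C3H (triangles, 26). Most members lie above 0.5 in every set, and Ggps1 and Mylip lie at or below 0 in all 3.

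A few members did not follow. Mylip had an r of -0.04 in 129, -0.31 in the B6 strains and -0.41 in C3H, and its r with Mvk in C3H was -0.77. Ggps1 had -0.21, -0.23 and -0.05, and Insig2 0.05, 0.15 and -0.17. The signal of Ggps1 was the lowest of the members, with group means 0.49 to 1.56 above the array median, and its part in these values was not tested. Idi1, isopentenyl diphosphate isomerase, had -0.02, 0.47 and 0.15. In C3H it correlated with Msmo1 at 0.94 and with Scap at -0.60, and in 129 with Scap at -0.64.

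**Figure D5:**
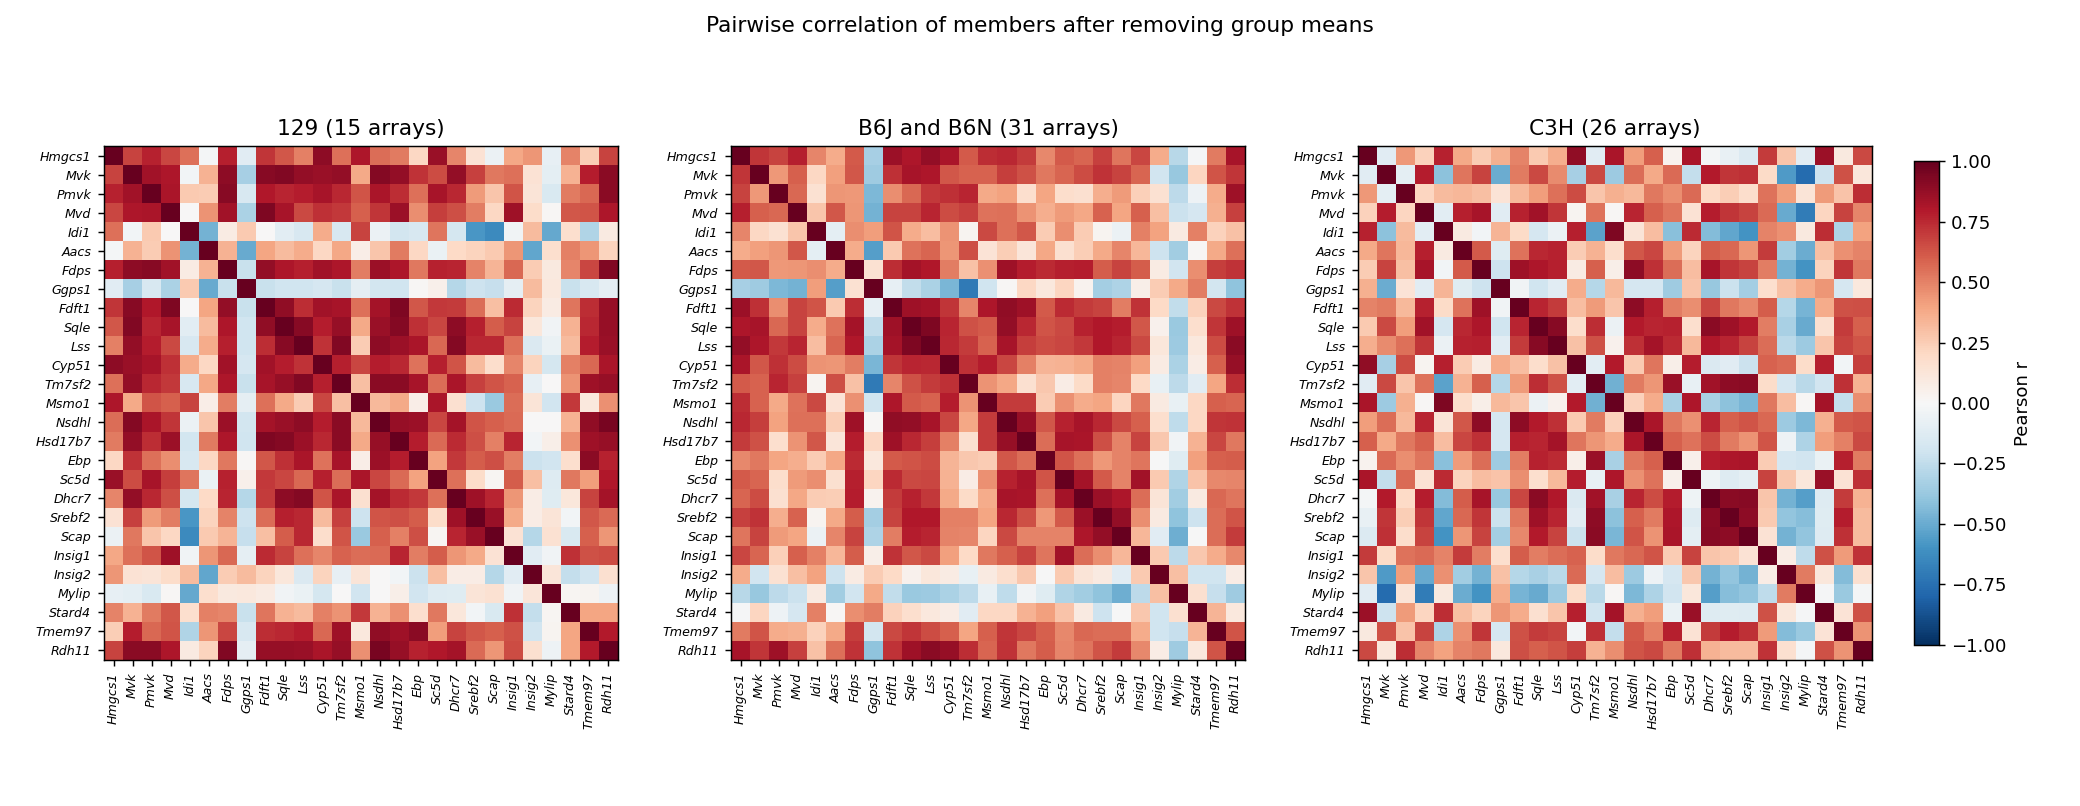
Pearson r of every pair of the 27 members after group means were removed, in each set of strains (red positive, blue negative, scale -1 to 1), in pathway order. Sqle, Lss, Nsdhl and Fdft1 are red against each other in all 3 sets, whereas the rows of Ggps1, Insig2 and Mylip are mostly pale or blue.

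The covariation also followed array-wide structure to a degree that differed by gene. The first residual component, which took 33.3%, 29.4% and 26.9% of the variance of all genes in 129, the B6 strains and C3H, had an r with Sqle of -0.66, -0.03 and 0.63. With Scap it had -0.87, 0.02 and 0.87, and with Ggps1 -0.07, -0.87 and -0.43. The sign of a component is arbitrary in each set. The mean of the members correlated with that of the SREBP-1 lipogenesis list without Aacs at 0.76, 0.60 and 0.85, with hepatocyte markers at 0.49, 0.59 and 0.75, with clock genes at 0.34, 0.17 and 0.57, and with acinar markers at 0.04, 0.07 and -0.35. For endothelial markers it was 0.57, 0.45 and 0.54, for stellate markers 0.49, 0.60 and 0.37, and for Kupffer and macrophage markers -0.18, -0.00 and -0.07. Single clock genes differed from their list: Arntl had an r of 0.32, 0.46 and 0.20 with the members' mean, Dbp 0.02, -0.29 and 0.17, and Nr1d1 0.33, 0.31 and 0.58. The part of these lists and genes in the covariation was not tested.

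Idi1, Fdft1 and Tmem97, a sterol-binding membrane protein, each had another probe set. In B6N against B6J controls the 2 probe sets of Idi1 gave -0.54 ± 0.20 and -0.54 ± 0.20, and those of Tmem97 gave -0.35 ± 0.11 and -0.24 ± 0.16 in the fit over all probe sets. Directions were the same in these comparisons. On HFD they were opposite and near 0 for Idi1 in B6J (0.01 ± 0.20 and -0.04 ± 0.21) and for Fdft1 in C3H (-0.02 ± 0.13 and 0.005 ± 0.13).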

How the data were processed

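Total RNA of 72 livers was labelled by a whole-transcript assay and hybridised to 1 array each, per the labels' protocols. Per the submitters' processing notes, the deposited log2 signals come from RMA, run with version 1.1 of Affymetrix Expression Console. From the array medians, the arrays were read as 3 sets normalised apart (129, B6, C3H), which no label states. The signals come from hybridisation, so read depth does not apply, and what limits their precision was not tested.

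Of 35556 probe sets, 21789 had 1 gene symbol, 1621 several and 12146 were not listed in the platform annotation; 21698 matched by identifier. For each of 19938 genes the probe set with the highest mean was used. Groups came from the labels. All arrays were fitted with 8 group means in limma 3.58.1 (R 4.3.3, lmFit and eBayes, 64 residual degrees of freedom), with Benjamini-Hochberg adjustment over all genes. The script was tested on simulated data.

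The members and lists were chosen with earlier results of these data known. Named are all called members, up to 4 per comparison that missed by size, and up to 4 called genes per related list. Levels of a called member are given in every group. Alternatives were quantile normalisation, median centring, bright genes, mean of probe sets, array weights, robust moderation, the replicate block, an acinar covariate, only the strains compared and leaving out each array. The first residual component and the B6 parts were added after seeing the data. No arrays were identical (0 pairs; highest correlation 0.995). Same-numbered B6N control and HFD arrays deviated together in 8 of 8 pairs (r at least 0.101), but only 3 of 8 correlated best with their own number. The B6 parts also follow the order of the numbers, so these r values cannot show that a number marks matched animals. The labels give only the number, and it entered only as the replicate block. No genome of the files' build was used; promoters are RefSeq's.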

Additional observations from a re-analysis of the deposited data

Results flagged for a closer look

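In groups of 7 or 8 livers, 13 of 189 combinations of member and group held an array whose gap to its neighbour was large for the group's range (Dixon's test). Chance flags about 1 in 20 groups, which is 9.45 of 189.

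Of these, 5 were the lowest array of the 129 controls, replicate 6. It had a log2 signal of 8.231 for Lss against 9.48 for the next array, 10.972 for Ebp against 11.849, 8.397 for Srebf2 against 8.849, 9.611 for Scap against 10.295 and 11.365 for Tmem97 against 11.865. The same array stood apart over all genes.

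B6N control replicate 6 was lowest for Stard4 at 8.554 (next 8.927) and for Tmem97 at 8.538 (next 9.026). 129 HFD replicate 2 was lowest for Sc5d at 12.212 (next 12.438) and for Insig2 at 11.399 (next 12.191). B6N HFD replicate 8 was lowest for Insig1 at 10.855 (next 11.28).

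The highest arrays were 129 HFD replicate 3 for Ggps1 at 8.063 (next 7.746), C3H HFD replicate 5 for Ggps1 at 4.188 (next 3.801) and B6N HFD replicate 2 for Mylip at 7.23 (next 6.928). Leaving out any of these arrays in turn kept Mylip called in the mean HFD effect.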

How the results depend on the processing

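Apart from leaving out single arrays, the medians moved by less than the spread between livers under the alternatives run and no called member reversed. That limit cannot show that the HFD medians held, because each was smaller in size than the spread. They lay between -0.16 and 0.01, and the members' median SD by group was 0.167 to 0.391. The medians of B6N against B6J, -0.38 to -0.27, were within that range in size. With the replicate block the HFD median in C3H went from 0.01 to 0.12, and the other HFD medians moved less. Leaving out single arrays, tried for the medians after seeing the data, moved those of HFD in B6N and C3H to either side of 0 and that in B6J to -0.02 (without B6J HFD replicate 3). Array weights called 10 members for HFD in 129 (2.89% of all genes), 6 in the mean HFD effect (share of all genes not given here), 2 in HFD-fed B6N against B6J (1.74%) and 11 over both diets (4.96%). The first residual component as a covariate, chosen after seeing the data, called 3, 4, 1 and 11 in that order. It called 1.28%, 5.21%, 0.492% and 1.99% of all genes there. The main fit called 0.577%, 3.16%, 0.191% and 0.361%. In B6N against B6J controls the component called 1 member (Sqle; 0.0953% of all genes), as did bright genes only (1). Quantile normalisation called 2 members in 129 and 2 over both diets, the acinar covariate 2 over both diets, and the B6 parts as a block 1 in 129. The 8-base core in place of the 10-base element was in 3 members' promoters. The causes of these differences were not tested. Leaving out each array in turn gave 0 to 2 calls in 129, 0 to 1 in B6 controls, 1 to 6 over both diets and 2 to 3 in the mean HFD effect. It gave 0 in the other comparisons.

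Of the called members, Tm7sf2 lost its call with quantile normalisation (limma adjusted p = 0.0604) and the replicate block (0.0956). Fdps lost it with quantile normalisation (0.0666), median centring (0.0652), the acinar covariate (0.108) and the B6 parts (0.0605), Fdft1 with quantile normalisation (0.0626) and Nsdhl with the acinar covariate (0.0962).

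Over all genes, 115 were called in 129 against 576 with array weights, 256 with the residual component and 41 with only that strain. In B6J 59 compared with 129, 135 and 95 in that order, in C3H 170 with 105, 367 and 93 and with 344 under the replicate block, and in B6N 183 with 277 (component). The mean effect had 630 against 1039 (component). B6 controls had 7 against 19 (component), HFD-fed B6 livers 38 against 347 (weights) and 98 (component), and both diets together 72 against 989, 396 and 123 (block). The test of any difference between strains had 25 against 71 (weights) and 53 (component).

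With the replicate number as a block, 0 members were called in each strain and 2 (Msmo1 and Mylip) in the mean effect. It called 0 in B6 controls, 0 in HFD-fed B6 livers and 6 over both diets, with medians of -0.14 in 129, -0.15 in B6J, -0.01 in B6N, 0.12 in C3H and -0.08 in the mean effect. For B6N against B6J the medians were -0.38 in controls, -0.24 on HFD and -0.31 over both. Outside B6N diet pairs, r of same-numbered arrays was over 0.1 in 6 of 7 pairs in 129, 5 of 7 in B6J, 1 of 8 in C3H, 6 of 8 for B6 controls and 4 of 7 for B6 HFD livers. Its median in that order was 0.13, 0.14, 0.03, 0.20 and 0.19. For arrays of other numbers it was -0.04, 0.02, -0.01, -0.04 and -0.02. In B6N diet pairs these medians were 0.28 and -0.07. An array correlated best with its own number in at most 3 pairs of any comparison.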
